A study of Homo sapiens with 12 samples.

Results

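The genes examined here encode the enzymes that write and erase histone acetylation and methylation, together with the enzymes that add and oxidise methyl groups on DNA. They were chosen by symbol, by a rule that uses no measured value but was set with earlier results of these data known, as all rows of the count table named KDM, KMT, HDAC, SIRT, KAT, SETD or SETDB by family pattern, plus EP300, CREBBP, EZH1, EZH2, DOT1L, SUV39H1, SUV39H2, EHMT1, EHMT2, DNMT1, DNMT3A, DNMT3B and TET1 to TET3. These patterns do not match KAT5, KAT7, KAT8, KAT14 or KDM8, so the rule does not hold every enzyme of these families. The rule found 75 of the 56609 symbols in the table, and 72 of these passed the filter on low counts and were tested. KDM4E (at most 2 counts in a library), KDM4F (0 counts) and KDM5D did not pass and are not described further. The symbols reach beyond histones in places: DNMT and TET enzymes act on DNA, HDAC6 acts mainly on cytoplasmic proteins, SIRT3, SIRT4 and SIRT5 are mitochondrial, and SETD3 and SETD6 have well known non-histone substrates.

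The cells were A375, a human melanoma line, either wild type or knocked out for MAPKAPK2 with CRISPR/Cas9, and each genotype was treated with 500 nM JQ1 or with its DMSO control for 48 h. MAPKAPK2 encodes MK2, a kinase downstream of the stress kinase p38, and JQ1 displaces BET bromodomain proteins from acetylated histones. The series asks how loss of MAPKAPK2 makes cells more resistant to BET inhibitors. Each of the 4 groups (wild-type DMSO, wild-type JQ1, knockout DMSO, knockout JQ1) had 3 replicate libraries of RNA depleted of rRNA. Whether the knockout cells were a clone or a pool, and whether replicates were separate cultures, is not given in the sources used here, so p-values measure the spread between these libraries.

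Acetyl groups placed on histone tails by acetyltransferases such as EP300 and KAT2B are removed by zinc-dependent deacetylases (HDAC1 to HDAC11) and by the NAD-dependent sirtuins. Class I deacetylases are mostly nuclear subunits of corepressor complexes, whereas the class IIa enzymes HDAC4, HDAC5, HDAC7 and HDAC9 shuttle between nucleus and cytoplasm, have weak catalytic activity of their own and bind MEF2 factors. Histone lysine methylation is written by SET-domain enzymes and DOT1L and removed by flavin-dependent (KDM1) and Jumonji (other KDM) demethylases, with different enzymes for each lysine. DNMT1 maintains DNA methylation through replication, DNMT3A and DNMT3B place it anew, and TET enzymes oxidise it. BET proteins are readers of the acetyl marks that these enzymes set.

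Each library held between 25300000 and 34600000 estimated counts, and the 4 groups were fitted together over 21698 genes with edgeR's quasi-likelihood test. Levels are CPM, counts scaled to a common library total of 1000000, fold changes are on the log2 scale with their standard error (SE), and every adjusted p is Benjamini-Hochberg adjusted over all 21698 genes, with 0.05 as the threshold for a call. MAPKAPK2 itself was between 87.9 and 119.7 CPM in the 6 wild-type libraries and between 11.1 and 15.7 CPM in the 6 knockout libraries. None of the enzyme genes lies beyond MAPKAPK2 on chromosome 1. The melanoma genes SOX10 and ERBB3 were well expressed (at least 389 and 554 CPM), while PMEL, MLANA, TYR, DCT and TYRP1, which belong to pigment production, were near 0. The 12 markers of other cell types summed to between 4.58 and 17.4 CPM and KRT1 was at 0 in every library.

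Libraries of 1 group differed in a way that moved with the base composition of the enzyme transcripts. Among the 60 enzyme genes at 10 CPM or more, the spread within groups on the log2 scale went with the GC content of the longest transcript (Pearson r = 0.62 and Spearman rho = 0.59 across genes, a description only, since the genes share the 12 libraries). The 6 of these genes with the highest GC content (SIRT6, KMT2B, DOT1L, KDM6B, SETD1A and SETD1B, 61.3% to 64.9%) had a median deviation from their group mean of 0.45 in knockout JQ1 replicate 3, -0.31 in knockout JQ1 replicate 1 and -0.32 in knockout DMSO replicate 1. SIRT6, the richest in GC, did not follow these medians, with deviations of 0.08, 0.04 and 0.03 in the same libraries. The 6 with the lowest (HDAC2, KDM7A, SETDB2, SIRT1, KMT5B and HDAC8, 38.2% to 40.8%) moved the other way in knockout JQ1 replicate 3, at -0.18. KMT2D shows the size of this: it was at 75.1 and 82.7 CPM in knockout JQ1 replicates 1 and 2 and at 124 CPM in replicate 3. The wild-type libraries lay closer together, with medians of these 6 GC-rich genes between -0.14 and 0.12. Calls that changed when a library was left out are given below with that library named. Other values are mostly given with all libraries only.

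**Figure D1:**
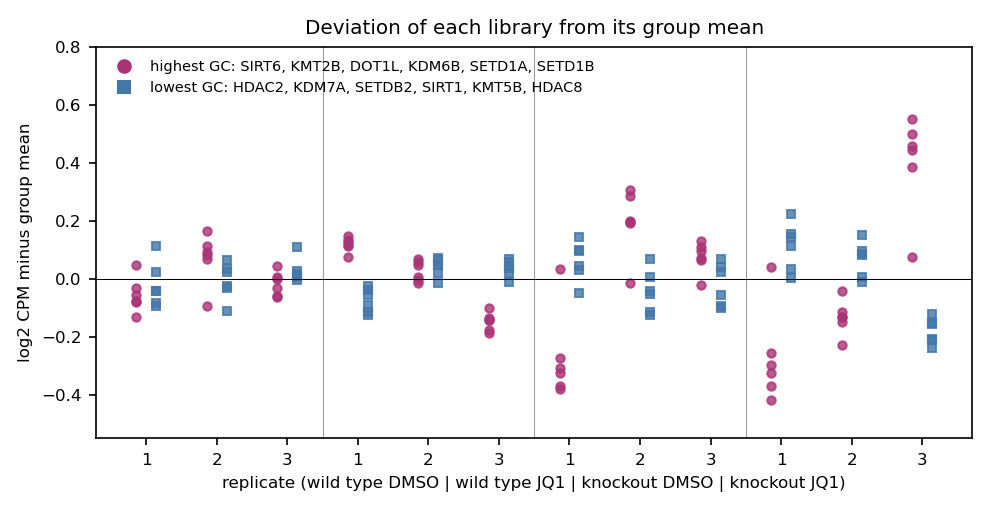
Deviation of each library from its group mean (log2, vertical axis) for the 6 enzyme genes of highest and the 6 of lowest transcript GC content, by library (horizontal axis). Points are genes, with circles for the highest and squares for the lowest GC content. Knockout JQ1 replicate 3 stands highest for the GC-rich genes (median 0.45) and lowest for the GC-poor genes (median -0.18).

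The start regions of 4 genes that JQ1 moved in both genotypes are printed here because these genes lead their role groups. They are HDAC9, the member with the largest fall, TET1 and TET2, which fell, and KDM4B, which rose. The sequences are from RefSeq on GRCh38.p14 and run 5′ to 3′ along the gene's strand over the 250 bases before its RefSeq start, except that HDAC9 is cut to 211 bases, which end before the GENCODE exon at this internal start. Capitals mark matches, on either strand, to CACGTG (the E-box bound by MYC and MITF families) or CCAAT (bound by NF-Y), and the motifs CCGGAAG (ETS factors) and TGACGTCA (the cAMP response element) were searched as well and not found in these 4. The windows are HDAC9 chr7:18495499-18495709, TET1 chr10:68560087-68560336, TET2 chr4:105145625-105145874 and KDM4B chr19:4968863-4969112, all on the plus strand.
HDAC9: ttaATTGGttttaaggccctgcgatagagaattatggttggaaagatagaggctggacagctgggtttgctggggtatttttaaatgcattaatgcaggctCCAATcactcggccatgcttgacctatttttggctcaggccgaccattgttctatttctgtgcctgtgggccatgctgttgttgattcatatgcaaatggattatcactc
TET1: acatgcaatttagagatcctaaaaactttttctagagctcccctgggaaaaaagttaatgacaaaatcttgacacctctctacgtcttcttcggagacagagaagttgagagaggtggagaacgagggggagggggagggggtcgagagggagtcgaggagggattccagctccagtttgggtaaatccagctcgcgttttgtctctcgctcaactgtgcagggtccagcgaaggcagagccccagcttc
TET2: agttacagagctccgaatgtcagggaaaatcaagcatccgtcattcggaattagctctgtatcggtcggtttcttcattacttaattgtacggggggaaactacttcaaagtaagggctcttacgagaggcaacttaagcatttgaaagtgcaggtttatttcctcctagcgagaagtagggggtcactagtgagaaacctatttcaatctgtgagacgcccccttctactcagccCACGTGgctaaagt
KDM4B: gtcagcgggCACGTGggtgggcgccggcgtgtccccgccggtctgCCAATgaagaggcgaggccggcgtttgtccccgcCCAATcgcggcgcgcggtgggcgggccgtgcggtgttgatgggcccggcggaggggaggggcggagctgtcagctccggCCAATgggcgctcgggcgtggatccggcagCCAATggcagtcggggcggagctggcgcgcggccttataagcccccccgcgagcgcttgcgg
The HDAC9 window is poor in CpG (3 sites, 44.1% GC) and holds CCAAT matches starting 247 and 149 bases before the start, and this start lies inside the longer GENCODE gene span, far downstream of its first base. TET1 (9 CpG, 51.6% GC) holds none of the motifs and TET2 (10 CpG, 45.6% GC) holds 1 E-box, 14 bases before its start. KDM4B is GC-rich (36 CpG, 75.6% GC), with 4 CCAAT matches and an E-box. Over the 67 tested members with a RefSeq entry, the median promoter had 23 CpG, against 11 over all 27305 promoters of the same length. CACGTG was found in 14.9% of the member promoters and 6.49% of all, CCGGAAG in 13.4% and 8.82%, TGACGTCA in 2.99% and 1.77%, and CCAAT in 31.3% and 33.0%. The set of all promoters was not matched to the members in CpG or GC content (median GC 58.0%, against 67.2% in members). These shares therefore do not show an excess of sites beyond base composition. CCAAT was in 5 of the 9 matched promoters of members that rose with JQ1 in both genotypes and in 1 of the 9 of members that fell in both. A match describes letters only.

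JQ1 changed the level of 24 of the 72 tested enzyme genes in wild-type cells, 12 higher and 12 lower. This share of 33.3% is next to the background, since 33.1% of all tested genes passed the same threshold (16.9% higher and 16.2% lower). In knockout cells 28 enzyme genes were called (38.9%), 11 higher and 17 lower, against a background of 34.4% (16.7% higher and 17.8% lower). The median absolute log2 fold change was 0.18 in wild type and 0.16 in knockout, against 0.29 and 0.30 over all genes. The median change was 0.00 in wild type and -0.01 in knockout, against -0.03 and 0.00 over all genes, with about as many members above as below 0 (36 and 36 in wild type). Scaling by library totals alone moved the median of all genes by -0.13 in wild type and -0.12 in knockout, and the calls became 7 higher and 24 lower in wild type and 8 higher and 25 lower in knockout; directions below are therefore relative to the bulk of genes.

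In both genotypes 20 enzyme genes were called, all in the same direction. That is 83.3% of the wild-type calls and 71.4% of the knockout calls, where all genes gave 76.2% and 73.3%, and 25.2% of all tested genes were called in both in the same direction. Those higher in both were DNMT1, HDAC3, HDAC6, KAT2B, KDM3A, KDM4A, KDM4B, SIRT4, SIRT6 and SIRT7, and those lower in both were DNMT3A, HDAC5, HDAC7, HDAC9, KAT6B, KMT2E, KMT5B, SETDB1, TET1 and TET2. The calls in wild type alone (DNMT3B, KDM1B, KDM4C and TET3) and in knockout alone (KAT6A, KDM1A, KDM3B, KDM5B, KDM7A, KMT5C, SETDB2 and SUV39H2) are no evidence of a difference between genotypes, because no enzyme gene passed the test of that difference, given further on.

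**Figure D2:**
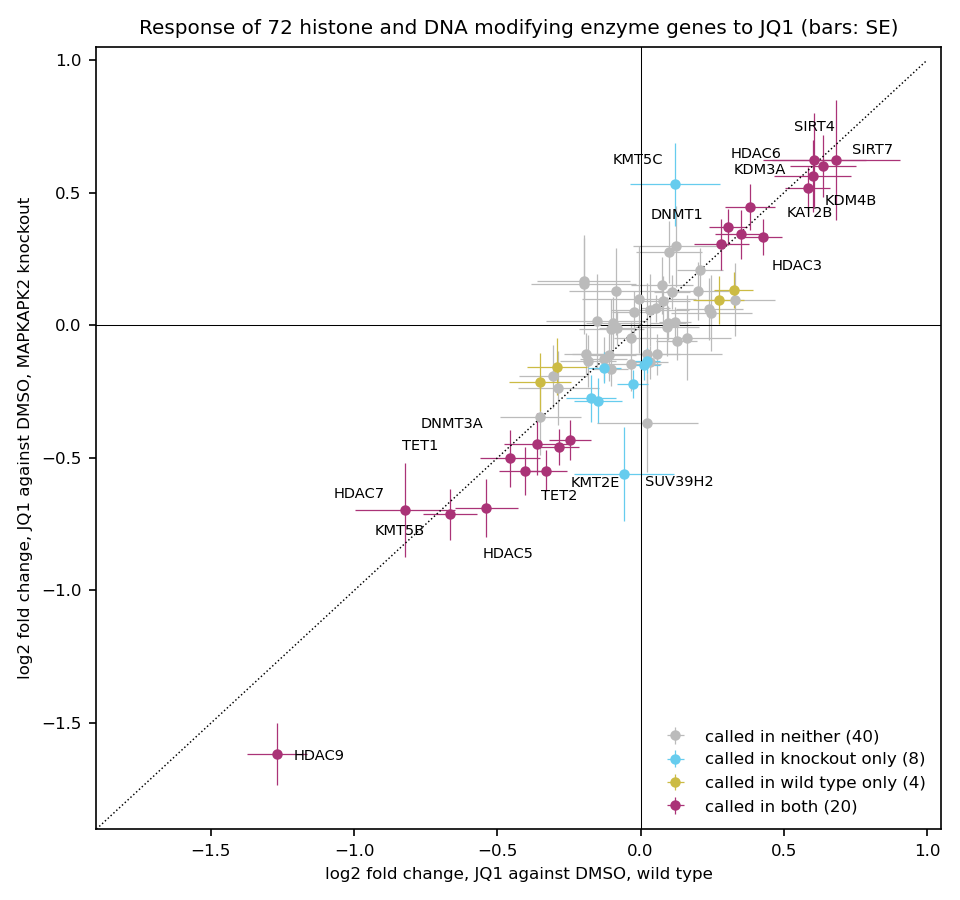
Log2 fold change of JQ1 against DMSO for the 72 tested enzyme genes, wild type on the horizontal and MAPKAPK2 knockout on the vertical axis; points are genes coloured by where they passed an adjusted p of 0.05, bars are SE, and the dotted line marks equal change. HDAC9 lies alone at the lower left (-1.27 and -1.62), and the 20 genes called in both genotypes lie near the line.

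HDAC9 had the largest JQ1 response of all enzyme genes in both genotypes. This class IIa deacetylase (chr7:18086949-19002416, GENCODE 29 on GRCh38, plus strand) was at 19.6, 17.7 and 19.4 CPM in the wild-type DMSO libraries and at 7.76, 7.31 and 8.40 CPM in wild-type JQ1. In the knockout it was at 9.71, 10.1 and 9.90 CPM in DMSO and at 3.58, 3.49 and 2.66 CPM in JQ1. The 4 groups do not overlap, in the order wild-type DMSO, knockout DMSO, wild-type JQ1, knockout JQ1. The difference between the middle pair was not tested. JQ1 lowered it to 0.415 of the DMSO level in wild type (log2 -1.27, SE 0.10, adjusted p 4.11e-07) and to 0.326 in knockout (log2 -1.62, SE 0.12, adjusted p 1.04e-07). Both calls were kept under all 21 alternatives. The summed level of the 12 markers of other cell types had the same order of groups. It was 16.3 to 17.4 CPM in DMSO and 6.80 to 7.66 CPM in JQ1 in wild type. In the knockout it was 12.3 to 12.5 CPM and 4.58 to 5.94 CPM. Much of this sum was 1 gene, PDGFRB, a receptor of mesenchymal cells. Its means were 10.4 CPM in DMSO and 3.92 CPM in JQ1 in wild type, and 7.84 and 2.22 CPM in knockout. Only 6 of the 12 markers passed the filter on low counts. With JQ1 all 6 were lower in wild type, but 4 were lower and 2 higher in knockout. Between genotypes all 6 were lower in the knockout in DMSO, but 3 were lower and 3 higher in JQ1. The leukocyte marker PTPRC was at 0.283 CPM or less in every library. The part of other cells in the HDAC9 result was not tested.

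The class IIa relatives HDAC5 and HDAC7 fell with JQ1 as well, while HDAC4 did not pass the test. HDAC7 (chr12:47782722-47833132, minus strand), known for roles in endothelial and lymphoid cells, was at 22.9, 23.1 and 19.98 CPM in wild-type DMSO and 13.7, 12.2 and 11.4 CPM in wild-type JQ1, and at 14.8, 19.4 and 17.3 CPM in knockout DMSO and 7.69, 9.29 and 14.6 CPM in knockout JQ1. In each genotype all JQ1 libraries were below all DMSO libraries, though knockout JQ1 replicate 3 came within a short distance of the DMSO range. The fall was -0.82 (SE 0.17, adjusted p 0.002) in wild type and -0.70 (SE 0.18, adjusted p 0.00707) in knockout. HDAC5 (chr17:44076746-44123702, minus strand) went from 80.9, 83.6 and 90.0 CPM to 62.9, 61.3 and 51.1 CPM in wild type (log2 -0.54, SE 0.11, adjusted p 0.00142) and from 84.2, 89.7 and 92.3 CPM to 48.3, 49.9 and 66.7 CPM in knockout (log2 -0.69, SE 0.11, adjusted p 0.000178). HDAC4 was at 21.8 ± 1.19 CPM in wild-type DMSO and 23.4 ± 2.75 CPM in wild-type JQ1 (SD, n = 3; adjusted p 0.549), with a knockout difference of 0.28 (adjusted p 0.0795) that passed only without knockout JQ1 replicate 1 (adjusted p 0.0409) among the omissions of a library. HDAC7 exons overlap exons of SLC48A1 on the other strand, and how the counting used strand is not given in the sources used here.

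**Figure D3:**
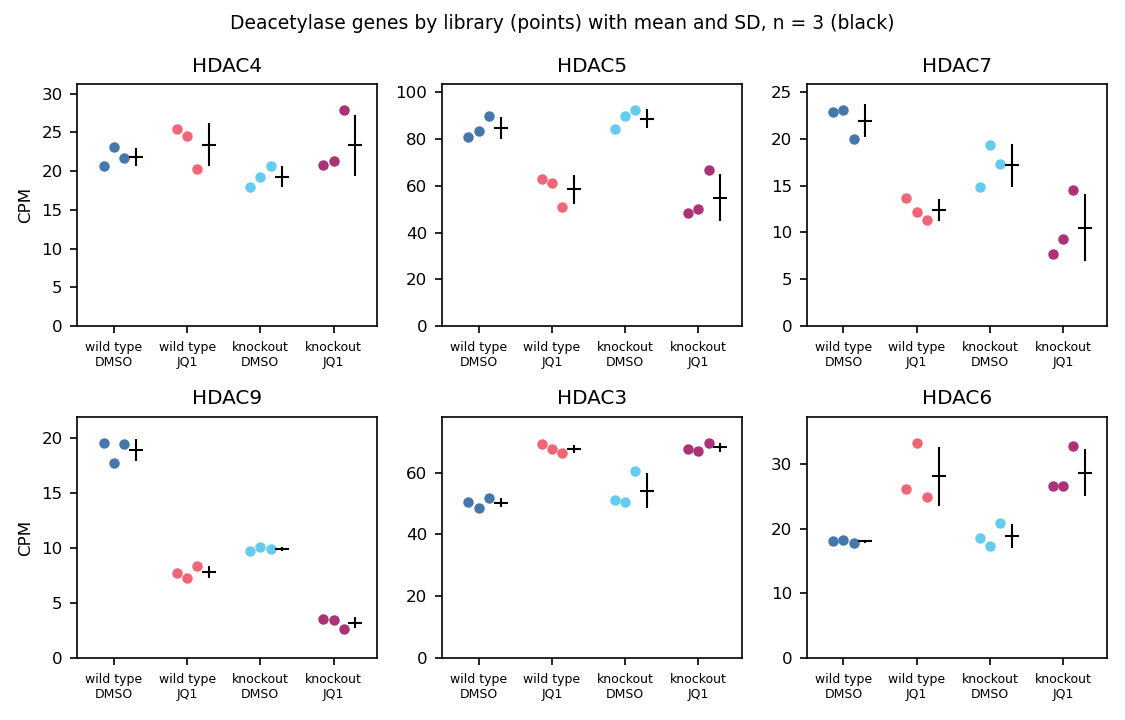
Level in CPM (vertical axes, from 0) of 6 deacetylase genes in each library, by genotype and treatment (horizontal axes); points are libraries and black marks are the mean and SD of 3. HDAC5, HDAC7 and HDAC9 are lower in JQ1 than in DMSO, HDAC3 and HDAC6 are higher, and HDAC9 is also lower in knockout than in wild type.

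Other deacetylases rose or did not pass. HDAC6 (chrX:48801377-48824982), the tubulin deacetylase of class IIb, rose from 18.1, 18.2 and 17.8 CPM to 26.0, 33.2 and 24.8 CPM in wild type (log2 0.64, SE 0.12, adjusted p 0.000626) and from 18.6, 17.3 and 20.9 CPM to 26.5, 26.6 and 32.8 CPM in knockout (log2 0.60, SE 0.12, adjusted p 0.000907). HDAC3 (chr5:141620876-141636870), the catalytic subunit of the NCOR and SMRT corepressors, rose from 50.5, 48.7 and 51.8 CPM to 69.1, 67.5 and 66.4 CPM in wild type (log2 0.43, SE 0.07, adjusted p 0.000232). Its knockout rise, from 51.1, 50.5 and 60.6 CPM to 67.7, 67.0 and 69.7 CPM, was 0.33 (SE 0.07, adjusted p 0.00153). HDAC3 was the only class I member of 4 to pass in either genotype. HDAC1, HDAC2 and HDAC8, the other class I enzymes, changed by -0.18 to 0.06 and did not pass (adjusted p at least 0.167), though HDAC2 and HDAC8 were called lower in wild type when only library totals were used for scaling (adjusted p 0.0358 and 0.0249) and HDAC8 in knockout without replicate 1 of knockout JQ1 (adjusted p 0.0472). HDAC10 and HDAC11 did not pass with JQ1 with all libraries. HDAC11, the class IV enzyme, was at -0.37 (adjusted p 0.144) in knockout and was called without knockout JQ1 replicate 3 (adjusted p 0.00475).

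The called sirtuins, 3 of 7 in each genotype (42.9%), all rose. Of all tested genes 33.1% were called in wild type (16.9% higher) and 34.4% in knockout (16.7% higher). In wild type all 3 sirtuins lost the call when only library totals were used for scaling (adjusted p 0.0601 for SIRT4, 0.0547 for SIRT6 and 0.0619 for SIRT7). In knockout SIRT6 (adjusted p 0.0502) and SIRT7 lost it in the same setting, and SIRT4 kept it. SIRT7 (chr17:81911939-81921323), a nucleolar deacetylase, was at 6.38, 4.71 and 7.31 CPM in wild-type DMSO and 11.4, 8.94 and 9.29 CPM in wild-type JQ1 (log2 0.68, SE 0.22, adjusted p 0.0297). In knockout it was at 5.13, 6.70 and 7.09 CPM in DMSO and 7.23, 7.91 and 13.8 CPM in JQ1 (log2 0.62, SE 0.23, adjusted p 0.0453). The knockout groups are barely apart, and this call was lost without wild-type DMSO replicate 1, wild-type JQ1 replicates 2 or 3, any knockout DMSO library or knockout JQ1 replicate 3 (adjusted p 0.0528 to 0.295), with a value of 0.27 without the last of these. The wild-type call was lost without replicates 1 or 2 of wild-type DMSO or replicate 1 of wild-type JQ1 (adjusted p 0.0609 to 0.116), and SIRT7 exons overlap those of MAFG on the same strand.

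SIRT4, a mitochondrial enzyme of low level here, rose from 1.91, 1.59 and 1.59 CPM to 2.58, 2.12 and 3.05 CPM in wild type (log2 0.61, SE 0.18, adjusted p 0.018). In knockout its levels were 1.70, 2.37 and 2.07 CPM in DMSO and 2.78, 3.45 and 3.23 CPM in JQ1 (log2 0.62, SE 0.18, adjusted p 0.0134). The wild-type call was lost without replicates 2 or 3 of wild-type DMSO or replicate 3 of wild-type JQ1 (adjusted p 0.0615 to 0.0876), and the knockout call without knockout DMSO replicate 1 (adjusted p 0.066). SIRT6, which acts on chromatin in DNA repair, rose by 0.35 in wild type (adjusted p 0.00841) and 0.34 in knockout (adjusted p 0.00948). It has the highest GC content of the well expressed members. With offsets for GC content and length its change was 0.11 (adjusted p 0.366) and 0.18 (adjusted p 0.143). Its deviations of 0.04 and 0.08 in knockout JQ1 replicates 1 and 3 are taken within a group, so they do not bear on a difference between groups. The part of base composition in its rise was not tested. Without wild-type JQ1 replicate 1 the wild-type adjusted p was 0.0508. SIRT1, the best studied family member, was at 24.4 ± 0.602 CPM in wild-type DMSO and 28.2 ± 0.893 CPM in wild-type JQ1 (adjusted p 0.0598) and differed by 0.21 in each genotype without passing. Its call appeared without knockout JQ1 replicate 3 in both genotypes (adjusted p 0.0181 or lower) and, in wild type, without knockout JQ1 replicate 1 (adjusted p 0.0383). SIRT2, SIRT3 and SIRT5 did not pass in either genotype with all libraries. SIRT3 (0.33) passed in wild type without replicates 2 or 3 of knockout JQ1 (adjusted p 0.0424 and 0.0497). SIRT5 (-0.35 and -0.34) passed in wild type without replicates 1 or 2 of knockout JQ1 (adjusted p 0.0448 and 0.0472) and in knockout without replicate 2 (adjusted p 0.0151).

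Of the 6 acetyltransferases that the symbol rule matches, KAT2B rose, KAT6B fell and the general coactivators were not called. KAT2B, also called PCAF (chr3:20040023-20154404, plus strand), went from 46.4, 44.7 and 43.0 CPM to 63.6, 66.5 and 70.9 CPM in wild type (log2 0.58, SE 0.08, adjusted p 4.35e-05) and from 41.0, 35.7 and 40.8 CPM to 58.4, 59.5 and 50.3 CPM in knockout (log2 0.52, SE 0.08, adjusted p 0.000123). Its close paralog KAT2A was at 18.3 ± 2.34 CPM in wild-type DMSO and 18.7 ± 2.95 CPM in wild-type JQ1 and did not pass (adjusted p 0.884 in wild type and 0.798 in knockout). KAT6B, the catalytic subunit of a MOZ/MORF complex, fell by 0.28 in wild type (adjusted p 0.00504) and by 0.46 in knockout (adjusted p 0.000115). KAT6A fell by 0.15 in knockout (adjusted p 0.0483), a call kept only when knockout JQ1 replicate 2 was the library left out (adjusted p 0.0614 to 0.151 for the other 11). EP300 was at 49.5 ± 0.650 CPM in wild-type DMSO and 46.3 ± 1.497 CPM in wild-type JQ1 (adjusted p 0.491). CREBBP was lower by 0.31 in wild type, with all JQ1 libraries under all DMSO libraries but an adjusted p of 0.0604. CREBBP passed there when replicate 1 of either knockout group or replicate 3 of knockout JQ1 was left out (adjusted p 0.0148 to 0.0384), and in knockout, where it differed by -0.19, without the first of these DMSO libraries or the third JQ1 library (adjusted p 0.0207 to 0.048).

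Among the histone methyltransferases KMT5B had the largest fold change with JQ1 in both genotypes, while the other 2 H4K20 enzymes were not called in wild type. KMT5B, or SUV420H1, which makes the higher H4K20 methyl states (chr11:68154863-68213828, minus strand), was at 40.1, 34.4 and 37.1 CPM in wild-type DMSO and at 22.0, 24.6 and 23.8 CPM in wild-type JQ1. In knockout it was at 38.4, 32.9 and 36.4 CPM in DMSO and at 23.6, 23.3 and 18.9 CPM in JQ1. These groups lie well apart in both genotypes, with changes of -0.67 (SE 0.09, adjusted p 7.6e-05) and -0.71 (SE 0.10, adjusted p 4.01e-05) kept under all alternatives. KMT5C, which shares the activity of KMT5B, was at 4.10, 3.54 and 3.90 CPM in knockout DMSO and 4.99, 5.60 and 6.08 CPM in knockout JQ1 (log2 0.53, SE 0.16, adjusted p 0.0158). That call was lost without knockout DMSO replicate 2 (adjusted p 0.0617) and with GC and length offsets (0.36, adjusted p 0.0695), and in wild type KMT5C differed by 0.12 (adjusted p 0.602). KMT5A, the H4K20 monomethyltransferase, was at 28.0 ± 1.29 CPM in wild-type DMSO and 27.5 ± 0.832 CPM in wild-type JQ1 and did not pass.

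Of the 8 genes of the H3K4 methyltransferase group 1 was called with JQ1 in each genotype, and it was KMT2E. KMT2E has a SET domain without established methyltransferase activity, so its fall does not describe the H3K4 writers. It went from 52.4, 49.4 and 50.2 CPM to 40.4, 42.0 and 38.5 CPM in wild type (log2 -0.33, SE 0.08, adjusted p 0.0035) and from 47.4, 50.3 and 49.5 CPM to 33.5, 37.5 and 29.8 CPM in knockout (log2 -0.55, SE 0.08, adjusted p 6.1e-05). Its exons overlap those of SRPK2 and KMT2E-AS1 on the other strand. KMT2A, the MLL enzyme, was at 180 ± 14.03 CPM in wild-type DMSO and 184 ± 1.62 CPM in wild-type JQ1 (adjusted p 0.741), and KMT2D, which marks enhancers, was at 109 ± 6.36 and 94.8 ± 6.75 CPM (adjusted p 0.39). Both missed the threshold in knockout as well (adjusted p 0.106 and 0.478). KMT2C passed in wild type without knockout JQ1 replicate 3 (adjusted p 0.0497, against 0.121 with it), and SETD7 passed in knockout without knockout JQ1 replicates 1 or 2 (adjusted p 0.0362 and 0.0366, against 0.0508).

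H3K9 methyltransferases, which build heterochromatin, gave 1 call of 6 in wild type and 3 in knockout, all lower, where 16.2% and 17.8% of all tested genes were called lower. SETDB1, which silences endogenous retroviruses, went from 67.8, 62.2 and 62.7 CPM to 57.1, 55.6 and 49.7 CPM in wild type (log2 -0.25, SE 0.07, adjusted p 0.0188) and from 63.4, 67.4 and 68.0 CPM to 46.9, 46.4 and 54.0 CPM in knockout (log2 -0.43, SE 0.07, adjusted p 0.000373). Its wild-type call was lost without replicate 1 of wild-type DMSO or replicate 3 of wild-type JQ1 (adjusted p 0.0865 and 0.0943). SUV39H2 was at 16.3, 11.2 and 13.5 CPM in knockout DMSO and 8.38, 10.2 and 9.21 CPM in knockout JQ1 (log2 -0.56, SE 0.18, adjusted p 0.0234), a call lost without replicates 1 or 3 of knockout DMSO or replicate 1 of knockout JQ1 (adjusted p 0.054 to 0.12). In wild type SUV39H2 ranged from 9.24 to 14.2 CPM in DMSO and from 8.57 to 12.2 CPM in JQ1, with overlapping groups. SETDB2 fell by 0.28 in knockout (adjusted p 0.0253) and lost the call without replicates 2 or 3 of knockout DMSO or replicates 1 or 3 of knockout JQ1 (adjusted p 0.0574 to 0.093). SUV39H1 was at 25.2 ± 1.23 CPM in wild-type DMSO and 23.5 ± 1.01 CPM in wild-type JQ1 (adjusted p 0.542). EHMT1 passed in wild type without knockout JQ1 replicate 3 (0.20, adjusted p 0.189 with it and 0.0214 without), and EHMT2 was not called.

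The H3K27 methyltransferases, the catalytic subunits of Polycomb complex PRC2, were not called. EZH2 was at 54.6, 51.5 and 54.8 CPM in wild-type DMSO and 48.2, 51.4 and 52.4 CPM in wild-type JQ1, with overlapping groups (log2 -0.08, SE 0.06, adjusted p 0.359; -0.21, adjusted p 0.0281, with library totals only). In knockout it was at 52.0, 46.4 and 50.7 CPM in DMSO and 49.8, 51.2 and 47.3 CPM in JQ1 (adjusted p 0.936). EZH1 differed by 0.06 in wild type and by -0.11 in knockout without passing (adjusted p 0.618 and 0.317). SETD2, which trimethylates H3K36, was at 72.6 ± 1.89 CPM in wild-type DMSO and 77.5 ± 3.82 CPM in wild-type JQ1 (adjusted p 0.278), while DOT1L, which methylates H3K79, was at 34.5 ± 1.72 and 31.1 ± 3.13 CPM (adjusted p 0.547). None of SETD3, SETD4, SETD5, SETD6 and SETD9 was called, with SETD5 (-0.19 in wild type, adjusted p 0.0751) passing without replicate 1 of knockout DMSO or replicate 3 of knockout JQ1 (adjusted p 0.0393 and 0.0467).

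Of 9 tested Jumonji demethylases of H3K9 and H3K36, 4 rose and none fell in wild type, and 3 rose and 2 fell in knockout (all genes: 16.9% higher and 16.2% lower, 16.7% higher and 17.8% lower). KDM4B (chr19:4969113-5153595, plus strand), which demethylates H3K9 and H3K36, was at 23.9, 24.1 and 25.01 CPM in wild-type DMSO and 39.2, 39.4 and 32.2 CPM in wild-type JQ1 (log2 0.60, SE 0.14, adjusted p 0.00323). In knockout it was at 23.1, 25.9 and 27.5 CPM in DMSO and 31.3, 33.3 and 48.1 CPM in JQ1 (log2 0.56, SE 0.14, adjusted p 0.00471), so the groups stay apart although knockout JQ1 replicate 3 is far above the other JQ1 libraries. Without it the rise was 0.34 (adjusted p 0.00938). KDM4A rose by 0.31 (adjusted p 0.00249) and 0.37 (adjusted p 0.000521) in wild type and knockout. KDM3A, an H3K9 demethylase, rose by 0.38 (adjusted p 0.00331) and 0.45 (adjusted p 0.00104). KDM4C rose by 0.32 in wild type (adjusted p 0.00175) and differed by 0.13 in knockout (adjusted p 0.146), where it passed without knockout JQ1 replicate 3 (adjusted p 0.0134). KDM7A and KDM3B fell in knockout, by 0.28 (adjusted p 0.0183) and by 0.16 (adjusted p 0.0455). The KDM7A call was lost without replicate 1 of knockout DMSO or replicate 3 of knockout JQ1 (adjusted p 0.056 and 0.108) and with GC and length offsets (-0.13, adjusted p 0.105). The KDM3B call was lost without any library other than wild-type JQ1 replicate 3 and knockout JQ1 replicates 2 and 3 (adjusted p 0.0565 to 0.159). KDM2A, KDM2B and KDM4D did not pass with all libraries. KDM2B was called lower in knockout without knockout JQ1 replicate 3 (adjusted p 0.0403) and in wild type with GC and length offsets.

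The flavin demethylases and the H3K4 and H3K27 Jumonji enzymes gave small changes. KDM1A, also called LSD1, was at 171, 174 and 176 CPM in wild-type DMSO and 177, 181 and 171 CPM in wild-type JQ1, and at 197, 192 and 199 CPM in knockout DMSO and 180, 178 and 178 CPM in knockout JQ1. JQ1 brought it down by 0.13 (SE 0.05, adjusted p 0.0352) in knockout, to the wild-type range. This call was lost without any library other than wild-type JQ1 replicate 3, knockout DMSO replicate 2 and knockout JQ1 replicate 3 (adjusted p 0.0521 to 0.122). KDM5B, an H3K4 demethylase linked to slow-cycling melanoma cells, had the same shape: 196, 195 and 201 CPM in wild-type DMSO, 194, 203 and 184 CPM in wild-type JQ1, 218, 219 and 234 CPM in knockout DMSO and 190, 186 and 200 CPM in knockout JQ1. It fell by 0.22 with JQ1 in knockout (SE 0.05, adjusted p 0.00518), a change of -0.10 (adjusted p 0.12) with GC and length offsets. KDM1B rose by 0.27 in wild type (adjusted p 0.0295), a call lost without any wild-type DMSO library or wild-type JQ1 replicates 2 or 3 (adjusted p 0.0544 to 0.122). KDM5A, KDM5C, KDM6A and KDM6B were called in neither genotype: KDM6A, an H3K27 demethylase, was at 34.2 ± 2.04 CPM in wild-type DMSO and 37.4 ± 0.993 CPM in wild-type JQ1 (adjusted p 0.195), its paralog KDM6B at 28.8 ± 3.05 and 28.7 ± 2.73 CPM (adjusted p 0.986), and KDM5A at 177 ± 6.11 and 173 ± 3.70 CPM (adjusted p 0.699).

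All 6 genes that write or oxidise DNA methylation were called with JQ1 in wild-type cells, where 33.1% of all tested genes were. DNMT1, the maintenance enzyme (chr19:10133345-10231286, minus strand), was at 200, 205 and 201 CPM in DMSO and at 263, 250 and 225 CPM in JQ1 (log2 0.28, SE 0.10, adjusted p 0.0366). The TET enzymes went down: TET1 (chr10:68560656-68694482) from 14.7, 15.8 and 14.3 CPM to 10.3, 10.6 and 11.8 CPM (log2 -0.45, SE 0.10, adjusted p 0.00374), TET2 (chr4:105145875-105279816) from 62.5, 64.0 and 58.6 CPM to 45.8, 49.9 and 44.2 CPM (log2 -0.40, SE 0.09, adjusted p 0.00287), and TET3 from 42.1, 43.6 and 42.9 CPM to 35.5, 34.4 and 30.9 CPM (log2 -0.35, SE 0.11, adjusted p 0.0216). The de novo enzymes went down with them, DNMT3A from 28.7, 29.6 and 28.8 CPM to 22.7, 24.8 and 20.4 CPM (log2 -0.36, SE 0.12, adjusted p 0.0259) and DNMT3B from 6.14, 6.20 and 5.69 CPM to 5.34, 4.64 and 4.73 CPM (log2 -0.29, SE 0.10, adjusted p 0.0447). So DNMT1 moved opposite to the other 5, with no overlap between the JQ1 and DMSO libraries of any of the 6. Several of these calls were near the threshold. DNMT1 lost it without any wild-type DMSO library or wild-type JQ1 replicates 1 or 2 (adjusted p 0.0657 to 0.138), DNMT3A without any wild-type DMSO library or wild-type JQ1 replicates 1 or 3 (0.0581 to 0.11), TET3 without replicates 2 or 3 of either wild-type group (0.0505 to 0.0912), and DNMT3B without any library other than wild-type JQ1 replicate 1 and knockout JQ1 replicate 3 (0.0536 to 0.142). DNMT1 also missed the threshold with library totals only (0.15, adjusted p 0.225; 0.18, adjusted p 0.00696, with GC and length offsets), DNMT3A and TET3 with the scaling of the deposited normalized table (adjusted p 0.127 and 0.135), and DNMT3B by DESeq2 (adjusted p 0.116). TET1 and TET2 were called under all 21 alternatives.

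In knockout cells JQ1 again raised DNMT1 and lowered DNMT3A, TET1 and TET2. DNMT1 was at 176, 217 and 208 CPM in DMSO and at 217, 238 and 288 CPM in JQ1 (log2 0.31, SE 0.10, adjusted p 0.0235), with the groups almost touching, and it lost the call without replicate 1 of knockout DMSO or replicate 3 of knockout JQ1 (adjusted p 0.0896 to 0.101; 0.18 without the latter) and with library totals only (0.19, adjusted p 0.133). DNMT3A went from 26.4, 30.6 and 28.6 CPM to 16.3, 23.6 and 22.7 CPM (log2 -0.45, SE 0.12, adjusted p 0.00777), or -0.30 (adjusted p 0.023) without knockout JQ1 replicate 1. TET2 went from 66.9, 63.6 and 65.5 CPM to 47.7, 49.3 and 37.2 CPM (log2 -0.55, SE 0.09, adjusted p 0.000242). TET1 stayed apart from its control too, at 12.5, 14.7 and 12.7 CPM in DMSO and 9.63, 10.5 and 8.20 CPM in JQ1 (log2 -0.50, SE 0.11, adjusted p 0.00208). TET3 differed by -0.21 (adjusted p 0.156), with knockout JQ1 replicate 3 at 39.6 CPM inside the DMSO range of 33.7 to 41.4 CPM, and passed without that library (adjusted p 0.0034). DNMT3B differed by -0.16 (adjusted p 0.296). The summed level of the 20 proliferation genes was 3120 ± 14.7 CPM without and 2938 ± 19.6 CPM with JQ1 in wild type, and 2881 ± 73.9 CPM without and 2789 ± 80.9 CPM with JQ1 in knockout (SD, n = 3). Of these genes 4 rose and 6 fell with JQ1 in wild type and 5 rose and 5 fell in knockout: PCNA, a replication gene, rose by 0.45 (adjusted p 1.68e-05) and 0.52 (adjusted p 3.42e-06), and MKI67, the gene of the Ki-67 antigen, fell by 0.28 (adjusted p 0.00275) and 0.35 (adjusted p 0.000523). The part of proliferation in the DNMT1 result was not tested.

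**Figure D4:**
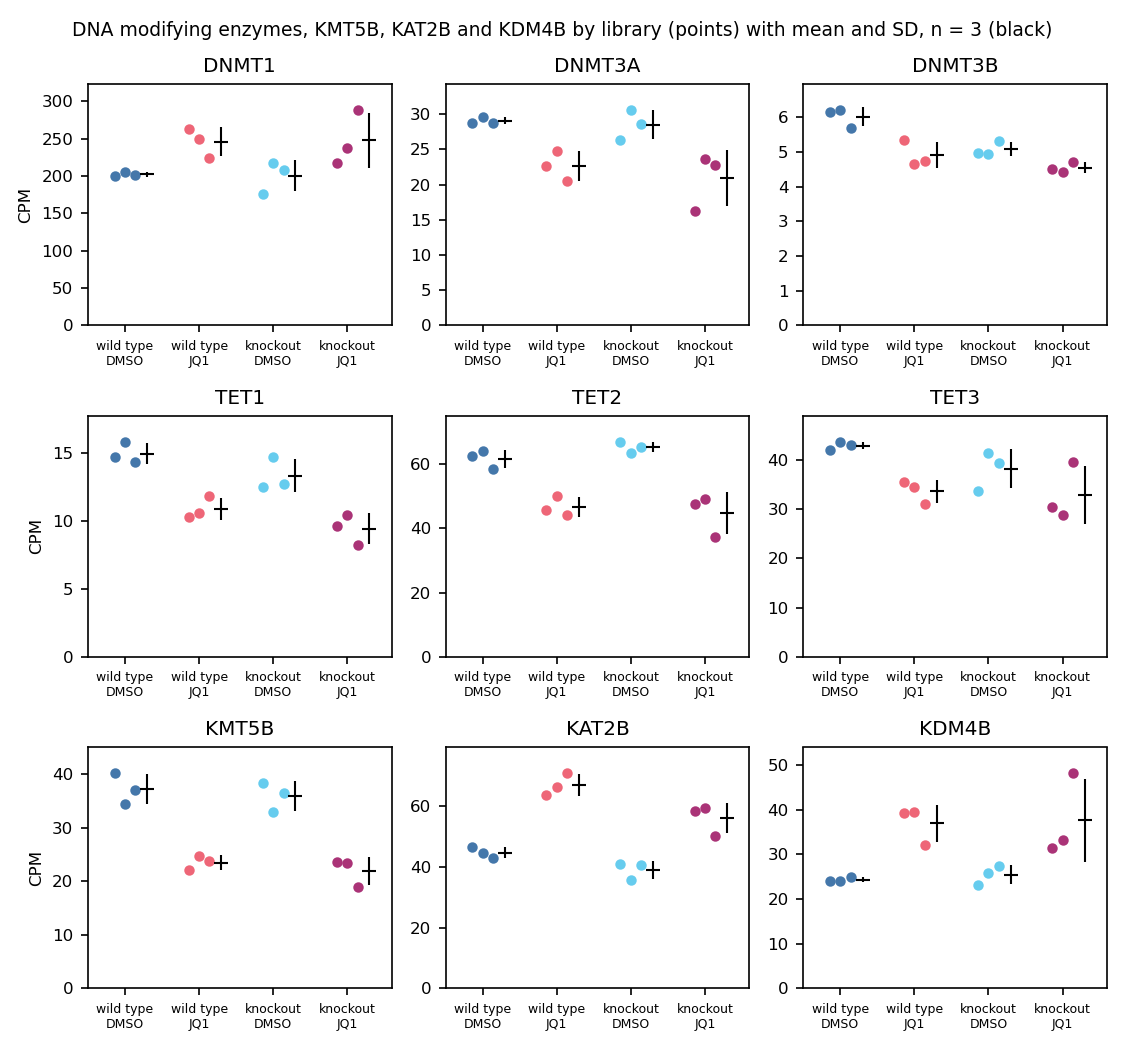
Level in CPM (vertical axes, from 0) of the 6 DNA-modifying enzyme genes and of KMT5B, KAT2B and KDM4B in each library, by genotype and treatment (horizontal axes); points are libraries and black marks are the mean and SD of 3. DNMT1, KAT2B and KDM4B are higher in JQ1, and DNMT3A, TET1, TET2 and KMT5B are lower, in both genotypes.

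Offsets for GC content and transcript length, a setting added after the spread between libraries had been seen, raised the number of enzyme genes called with JQ1 in wild type from 24 to 37 and in knockout from 28 to 32. In wild type the added calls were lower for CREBBP, DOT1L, KDM2B, KDM3B, KMT2B, KMT2D, SETD1B, SETD5, SIRT5 and SUV39H1, and higher for KDM6A, KMT2C, SETD2 and SIRT1. The largest of these were SIRT5 at -0.39 (adjusted p 0.031) and CREBBP at -0.35 (adjusted p 0.000336). KMT2C, an enhancer H3K4 methyltransferase (0.21, adjusted p 0.00102), and its paralog KMT2D (-0.26, adjusted p 0.0258) went in opposite directions in this setting. SIRT6 was the 1 wild-type call that it removed.

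Between genotypes HDAC9 had the largest called difference of the enzyme genes, and the number called depended on the setting. In DMSO 2 of the 72 were called (2.78%, against a background of 7.92% of all tested genes, 3.47% higher and 4.44% lower), HDAC9 lower and KDM1A higher. At an unadjusted p under 0.05 there were 14 of 72, beside 19.7% of all tested genes. With GC and length offsets 11 were called (4 higher and 7 lower), and with only the groups compared 6. HDAC9 was at 18.9 ± 1.03 CPM in wild type and 9.89 ± 0.173 CPM in knockout (SD, n = 3), with no overlap between groups (log2 -0.93, SE 0.10, adjusted p 3.52e-05). Its call was kept under all alternatives. KDM1A was higher by 0.17 (SE 0.05, adjusted p 0.0304), from 171 to 176 CPM in wild type to 192 to 199 CPM in knockout, and the call was lost without any wild-type DMSO library, wild-type JQ1 replicate 1, or knockout DMSO replicates 1 or 3 (adjusted p 0.0535 to 0.111), and with the replicate number as a block (adjusted p 0.0647). KDM5B was next in line at 0.18 (SE 0.05, adjusted p 0.0529) and passed without knockout JQ1 replicate 3 (adjusted p 0.0153). KMT2A (-0.19, adjusted p 0.0818), which had 1 wild-type DMSO library at 164 CPM beside 2 at 188 CPM, passed without that library or without knockout JQ1 replicate 3 (adjusted p 0.0329 and 0.0393). Knockout JQ1 replicate 3 is in neither group of this contrast, but it enters the shared filter, scaling, estimate of spread and adjustment. Without it, 8 enzyme genes were called in DMSO. They were HDAC9, KDM1A, KDM5B, KMT2A and, newly, HDAC7 (adjusted p 0.0398), KDM3B (0.0473), KMT2D (0.0352) and SIRT3 (0.03, also 0.0305 without knockout JQ1 replicate 2).

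In JQ1 6 enzyme genes were called between genotypes, all lower in the knockout (8.33%, against 8.57% of all tested genes, 3.01% higher and 5.56% lower). HDAC9 was at 7.82 ± 0.548 CPM in wild type and 3.24 ± 0.507 CPM in knockout (log2 -1.28, SE 0.12, adjusted p 6.19e-06). KMT2A was at 185, 185 and 182 CPM in wild-type JQ1 and 134, 148 and 146 CPM in knockout JQ1 (log2 -0.37, SE 0.06, adjusted p 0.00178), well separated. With HDAC9 it was the only call kept under all 21 alternatives. HDAC10, which deacetylates polyamines, was at 7.91, 9.35 and 8.16 CPM in wild type and 5.14, 5.23 and 7.03 CPM in knockout (log2 -0.54, SE 0.16, adjusted p 0.0485). Its exons overlap those of MAPK12 on the same strand. The others were KDM7A (-0.32, adjusted p 0.0307), KMT2E (-0.26, adjusted p 0.0484) and SETD2 (-0.23, adjusted p 0.0363), where the GC and length offsets gave -0.20 for KDM7A and -0.15 for SETD2, and these 3 were lost with the replicate number as a block (adjusted p 0.0509, 0.0546 and 0.068).

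The smaller knockout calls in JQ1 also depended on single libraries. HDAC10 was lost without any wild-type JQ1 library, wild-type DMSO replicates 1 or 3, knockout DMSO replicate 3 or knockout JQ1 replicates 1 or 2 (adjusted p 0.0535 to 0.179). KDM7A was lost without wild-type DMSO replicates 2 or 3, wild-type JQ1 replicates 2 or 3, or knockout JQ1 replicates 1 or 3 (0.0551 to 0.124). KMT2E was kept only without knockout JQ1 replicate 2 (0.0645 to 0.18 without each of the other 11), and SETD2 only without wild-type JQ1 replicate 2 or knockout JQ1 replicate 2 (0.0594 to 0.142 without each of the other 10). HDAC7 (-0.23, adjusted p 0.541) and HDAC11 (-0.49, adjusted p 0.131) passed without knockout JQ1 replicate 3 (adjusted p 0.0146 and 0.0049). KAT2B was lower by 0.26 with all knockout libraries under all wild-type ones and missed the threshold (adjusted p 0.0541).

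**Figure D5:**
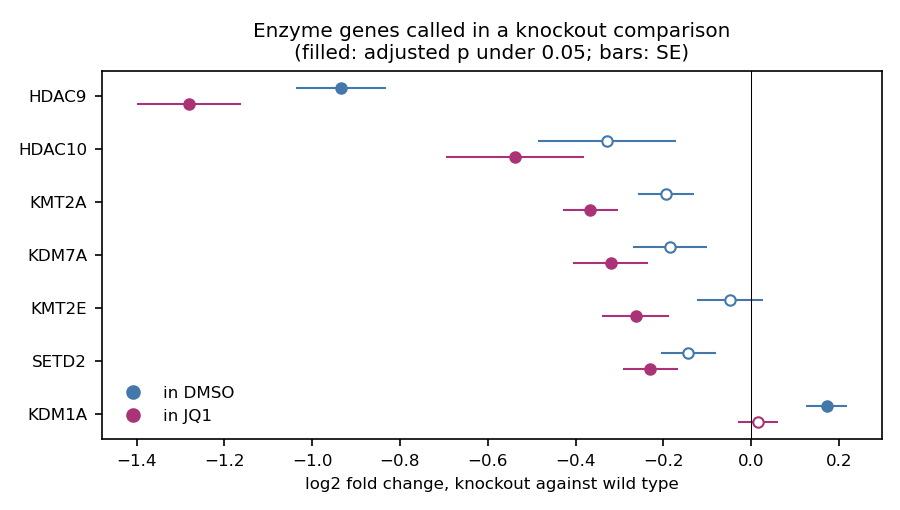
Log2 fold change of knockout against wild type (horizontal axis) for the 7 enzyme genes called in DMSO or in JQ1; filled points passed an adjusted p of 0.05, open points did not, and bars are SE. HDAC9 is lowest in both treatments (-0.93 and -1.28), and KDM1A is the only gene above 0.

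No enzyme gene passed the test of whether the JQ1 response differed between genotypes by edgeR (0.134% of all tested genes did, 0.0323% higher and 0.101% lower), and none passed by DESeq2. At an unadjusted p under 0.05 there were 3 members, beside 8.37% of all genes: KDM5B (-0.19, adjusted p 0.512), KDM1A (-0.16, adjusted p 0.529) and HDAC9 (-0.35, SE 0.16, adjusted p 0.573). The fall of HDAC9 with JQ1 in knockout (-1.62) was thus not shown to be larger than that in wild type (-1.27).

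Lists of partner genes and of further chromatin enzymes are set beside the 33.1% of all tested genes called with JQ1 in wild type (16.9% higher and 16.2% lower) and the 34.4% in knockout (16.7% higher and 17.8% lower). Of 12 COMPASS subunits, which hold the H3K4 methyltransferases, 6 were called in wild type (50%), all higher (median log2 of the list 0.14, against -0.03 over all genes), with ASH2L at 0.35 (adjusted p 0.000269) and DPY30 at 0.40 (adjusted p 0.000379). In knockout 7 were called, 6 higher, led by CXXC1 at 0.70 (adjusted p 0.000279). Of 9 PRC2 partners, 7 were called in wild type (77.8%), 6 of them lower (median -0.30), among them RBBP4 at -0.35 (adjusted p 0.00048) and PHF19 at -0.36 (adjusted p 0.00279). In knockout 3 of the 9 were called (33.3%), all lower, with PHF19 at -0.54 (adjusted p 0.000104). These lists stand beside EZH2 and the KMT2 enzymes, of which only KMT2E was called.

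Deacetylase corepressor subunits were called in both directions, 5 higher and 5 lower of 24 in wild type (41.7%, against 33.1% of all genes) and 3 higher and 9 lower in knockout (50%, against 34.4%). GPS2, a subunit of the HDAC3 corepressor, rose by 1.00 on the log2 scale in wild type (adjusted p 1.67e-07) and rose by 0.75 in knockout (adjusted p 2.15e-06). TBL1X of the same complex fell by 0.60 in wild type (adjusted p 1.13e-06). Among 22 partners of the acetyltransferases 5 were called in wild type (22.7%) and 12 in knockout (54.5%), with SGF29 of the SAGA complex at 1.16 (adjusted p 8.7e-06) and ENY2 at 0.51 (adjusted p 3.74e-05) in wild type. Of 30 further chromatin enzymes outside the symbol rule, 15 were called in wild type (50%, 10 higher and 5 lower) and 19 in knockout (63.3%, 9 higher and 10 lower). PRMT2, an arginine methyltransferase, rose by 0.52 and 0.46, and NSD1, an H3K36 methyltransferase, fell by 0.35 and 0.50. Of 11 partners of DNA methylation 4 were called in wild type (36.4%) and 3 in knockout (27.3%), shares near those of all genes. L3MBTL3 fell by 0.55 (adjusted p 0.00363) and 0.52 (adjusted p 0.00538).

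Between genotypes in DMSO, the called partners were 3 of 30 further chromatin enzymes, 2 of 24 corepressors, 2 of 22 acetyltransferase partners and 1 of 11 partners of DNA methylation, or 8.33% to 10.0% of each list, against 7.92% of all tested genes. In JQ1 they were 3, 3, 4 and 1 of the same lists, or 9.09% to 18.2%, against 8.57%. In DMSO, SMYD3 (-0.53, adjusted p 0.000781), SMYD2 (-0.40, adjusted p 0.00121), RCOR3 (-0.55, adjusted p 0.00208) and TAF5L (-0.29, adjusted p 0.0115) were lower in the knockout, and all 4 were lower in JQ1 too. These 4 genes are the only ones of the partner and marker lists that lie beyond MAPKAPK2 (chr1:206684944-206734283) on chromosome 1, at chr1:245749342-246507312, chr1:214281102-214337131, chr1:211258377-211316385 and chr1:229593111-229626047. GPS2 (0.59, adjusted p 0.000166) and SGF29 (0.52, adjusted p 0.0252) were higher in the knockout in DMSO. No COMPASS partner was called between genotypes in edgeR's test, where 1 of 12 reached an unadjusted p under 0.05 in each treatment. Of the PRC2 partners RBBP4 alone was called, higher in JQ1 (0.22, adjusted p 0.0416).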

How the data were processed

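RNA of 12 libraries was depleted of rRNA and made into libraries with a directional kit, per the labels' protocols. The submitters' processing notes name Trim Galore, cutadapt, FastQC, MultiQC, kallisto, DESeq2 and the build GRCh38.p10, with no role or order; whether counting used strand is not given in the sources used here. The table of estimated counts per gene, deposited by the authors with values that need not be whole, was rounded to whole counts, so the test planned for counts was run on rounded values. The other deposited table covers 32828 genes in normalized units, a signal made by the authors, and served only for an alternative scaling with its factors.

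Genes were filtered with edgeR's filterByExpr over the 4 groups, leaving 21698, scaled by TMM and fitted together by edgeR's quasi-likelihood test (edgeR 4.0.16, limma 3.58.1, R 4.3.3), with Benjamini-Hochberg adjustment over all genes tested and a threshold of 0.05. Library totals were 25300000 to 34600000 counts, and the precision of each value is given by the SE or SD over 3 replicates. On simulated data for JQ1 against DMSO in wild type (21698 genes, 50 changed per fold), 78% of 0.5-fold, 64% of 0.714-fold, 66% of 1.4-fold and 90% of 2-fold changes were recovered, with 6.88% false among calls. The simulation changed far fewer genes than the 33.1% called in the real contrast. It also drew each library independently, without the deviations that moved with GC content. These rates therefore need not hold for the real libraries. Alternatives were other scalings, no filter on low counts, DESeq2 1.42.0, only the groups compared, a replicate block and leaving out each library; offsets for GC content and length, alone and with the block, were added after the data had been seen. Positions and transcripts are from GENCODE 29, promoters from RefSeq. Exons of 29 members overlap an exon on the opposite strand. Exons of 10 members, among them DNMT1 (with S1PR2), HDAC10 and SIRT7, overlap an exon of another gene on the same strand.

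The symbol rule uses no measured value, but the members and lists were chosen with earlier results of these data known. Named with values by rule were 28 fixed members, for each contrast up to 5 largest rises and 5 largest falls past the threshold among genes of at least 1 CPM, the 3 smallest interaction p-values, and up to 2 genes per list and contrast with the smallest adjusted p. Other members and list genes that the text names were chosen after their values were seen.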

Additional observations from a re-analysis of the deposited data

How the results depend on the processing

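Of the called enzyme genes, 15 of 24 (JQ1 in wild type), 16 of 28 (JQ1 in knockout), 1 of 2 (knockout in DMSO) and 2 of 6 (knockout in JQ1) were called under all 21 alternatives, and no result reversed. With GC and length offsets, 37 enzyme genes were called for JQ1 in wild type, 11 for knockout in DMSO and 10 for knockout in JQ1. DESeq2 called 5 for knockout in DMSO, and fitting only the groups compared called 6 in DMSO and 2 in JQ1. Over all genes, knockout in DMSO had 1718 calls (2619 with only the groups compared, 2786 with the offsets), knockout in JQ1 1860 (922 and 3108), and the interaction 29 (236 with no filter, 130 by DESeq2, 166 with the offsets). Leaving out 1 library gave 17 to 30 enzyme genes for JQ1 in wild type, 21 to 29 for JQ1 in knockout, 1 to 8 for knockout in DMSO (8 without knockout JQ1 replicate 3) and 2 to 5 for knockout in JQ1. Over all genes it gave 1092 to 2650 for knockout in DMSO (lowest without knockout DMSO replicate 3 and highest without knockout JQ1 replicate 3), 1223 to 2331 for knockout in JQ1 (lowest without wild-type JQ1 replicate 2) and 8 to 88 for the interaction (lowest without wild-type JQ1 replicate 1 or knockout DMSO replicate 3, and highest without knockout JQ1 replicate 3). The cause of these changes was not tested. No enzyme gene passed the interaction test under any alternative.

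The replicate numbers were not taken to pair the samples: the deviations of 18 same-numbered pairs correlated between -0.486 and 0.374, and 2 of 12 libraries correlated best with their own number. With the replicate number as a block, 23 enzyme genes were called for JQ1 in wild type, 25 for JQ1 in knockout, 1 for knockout in DMSO and 3 for knockout in JQ1, and 6789, 7136, 1487, 1569 and 21 of all genes for these contrasts and the interaction. The block together with the offsets gave 37 for JQ1 in wild type, 9 for knockout in DMSO and 11 for knockout in JQ1, and 2624, 2954 and 144 of all genes for knockout in DMSO, knockout in JQ1 and the interaction.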

Other observations

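The genes around HDAC9 on chromosome 7, chosen after their values were seen, are given here as values. TWIST1, a transcription factor of neural crest and mesenchyme, was at 20.7, 21.8 and 22.8 CPM in wild-type DMSO, 18.0, 16.4 and 15.2 CPM in wild-type JQ1, 20.5, 21.6 and 21.9 CPM in knockout DMSO and 14.8, 14.9 and 15.4 CPM in knockout JQ1. It fell with JQ1 by 0.40 in wild type (adjusted p 0.00121) and by 0.50 in knockout (adjusted p 0.000165), and between genotypes it differed by -0.03 in DMSO (adjusted p 0.886) and by -0.14 in JQ1 (adjusted p 0.367). AHR, the aryl hydrocarbon receptor, was lower in the knockout in DMSO (-0.29, adjusted p 0.0151) and rose with JQ1 in knockout (0.40, adjusted p 0.000366). SNX13 and TWISTNB were called in none of these contrasts.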
